A study of Mus musculus with 4 samples.

Results

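Distal open chromatin called in the nuclei of heart endothelial cells (ECs) and not in the other heart nuclei comprised 6189 peaks, out of 65008 peaks in the GFP+ (endothelial) list. These peaks were selected on their presence in one list and absence from the other: none overlapped any of the 78912 peaks of the GFP- (non-endothelial) list by 1 bp, and each had its summit more than 1000 bp and at most 100000 bp from the nearest start of a protein-coding transcript, outside every annotated exon. They are called GFP+ only distal peaks here. Of all GFP+ peaks, 8730 (13.4%) had no overlapping GFP- peak, and from these 479 were left out within 1000 bp of a start, 1421 beyond the upper distance, 631 in exons and 10 on unplaced scaffolds. Of the 39533 GFP+ peaks at such distal positions, 15.7% were GFP+ only, and the other 33344 are called shared distal peaks. The 16402 distal peaks of the GFP- list without a GFP+ overlap served as a further comparison.

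The nuclei came from whole hearts of C57BL/6 male NuTRAP/Cdh5-Cre mice aged 8 to 12 weeks. Every mouse carried both alleles, so that GFP+ and GFP- nuclei differ by the sort and not by genotype. Cdh5 drives the Cre recombinase in endothelium, and the GFP reporter then marks all cells of that descent, whereas the GFP- nuclei are a mixture of everything else in the heart. Nuclei with a 2n DNA content were sorted with doublets removed, and 100 to 50000 of them went into each ATAC-Seq reaction, in which the Tn5 transposase inserts sequencing adapters into accessible DNA. Each population had 2 libraries, which the authors merged in peak calling. There is therefore 1 list per population and no replicate check of any value below. Intervals are 95% intervals, Wilson for a share and Newcombe for a difference of shares, and cover counting error only, since peaks are not replicates of a condition.

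Accessible sites far from promoters are often enhancers, stretches of DNA that bind transcription factors and act on genes at a distance. Endothelial enhancers are known for binding sites of ETS factors, such as ERG and FLI1, which recognise a GGAA core, and of the SoxF factors SOX7, SOX17 and SOX18, which recognise ATTGT or its complement. Forkhead, GATA and KLF factors take part at many of the same genes. The heart's other cells use other factors, among them MEF2 in cardiomyocytes and TCF21, which binds a CAGCTG E-box, in fibroblasts.

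To show what these peaks look like at well known endothelial genes, the 151 bp around the summit (base 76) of the largest GFP+ only distal peak at 9 of them are printed below, from the plus strand of GRCm38 (mm10). Capitals mark the ETS core word AGGAAG and the SOX word CCATTGT on either strand, so that CTTCCT and ACAATGG are also in capitals. The genes are *Cdh5* (VE-cadherin), *Egfl7* (a secreted angiogenic factor), *Kdr* and *Flt1* (VEGF receptors), *Tek* and *Tie1* (the angiopoietin receptor and its partner), *Dll4* (a Notch ligand), *Sox7* and *Erg*. None of these windows touches an annotated exon.
Cdh5 (chr8:104099520-104099670): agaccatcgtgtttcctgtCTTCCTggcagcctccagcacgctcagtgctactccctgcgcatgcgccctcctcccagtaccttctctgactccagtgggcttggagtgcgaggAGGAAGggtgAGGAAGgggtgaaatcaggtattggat
Egfl7 (chr2:26576057-26576207): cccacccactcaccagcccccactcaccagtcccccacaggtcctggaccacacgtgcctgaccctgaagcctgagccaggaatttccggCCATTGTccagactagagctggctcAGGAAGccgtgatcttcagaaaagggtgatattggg
Kdr (chr5:76013975-76014125): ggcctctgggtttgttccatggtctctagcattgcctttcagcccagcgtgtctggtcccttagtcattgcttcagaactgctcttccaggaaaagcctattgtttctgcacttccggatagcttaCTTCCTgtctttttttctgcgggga
Flt1 (chr5:147721557-147721707): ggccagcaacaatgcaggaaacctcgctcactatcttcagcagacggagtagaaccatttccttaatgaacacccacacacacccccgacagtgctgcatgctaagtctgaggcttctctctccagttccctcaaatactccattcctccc
Tek (chr4:94830119-94830269): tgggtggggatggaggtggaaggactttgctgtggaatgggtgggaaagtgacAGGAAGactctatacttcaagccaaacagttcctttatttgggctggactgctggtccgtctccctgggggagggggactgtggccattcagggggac
Tie1 (chr4:118500268-118500418): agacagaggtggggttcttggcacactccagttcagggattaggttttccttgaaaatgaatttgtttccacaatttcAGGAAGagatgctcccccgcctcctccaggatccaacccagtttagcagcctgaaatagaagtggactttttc
Dll4 (chr2:119311613-119311763): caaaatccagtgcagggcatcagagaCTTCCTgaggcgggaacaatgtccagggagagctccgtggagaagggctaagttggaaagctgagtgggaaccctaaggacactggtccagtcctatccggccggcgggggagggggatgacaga
Sox7 (chr14:63957852-63958002): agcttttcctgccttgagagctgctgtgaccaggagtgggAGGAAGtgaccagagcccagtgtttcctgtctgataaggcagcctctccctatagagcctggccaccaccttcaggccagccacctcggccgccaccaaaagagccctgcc
Erg (chr16:95463969-95464119): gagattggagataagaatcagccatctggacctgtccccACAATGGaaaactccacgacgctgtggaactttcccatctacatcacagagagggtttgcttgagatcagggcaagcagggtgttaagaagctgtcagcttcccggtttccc

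The *Cdh5* window held 3 ETS core words and the *Egfl7* window 1 ETS core word with 1 SOX word. In the *Kdr*, *Tek*, *Tie1*, *Dll4* and *Sox7* windows there was 1 ETS core word each, beginning 3 bp from the summit for *Tie1* and 51 bp from it for *Kdr*. The *Erg* window held 1 SOX word and no ETS core word, and the *Flt1* window held neither. These counts are for the printed 151 bp. In the 200 bp windows searched below, the *Flt1* peak held 1 ETS core word and the *Tek* and *Sox7* peaks 2 each. A match is a description of the letters and does not show that a factor binds there.

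The GFP+ only distal peaks were smaller than the shared ones. Their median area, which is the peak caller's significance signal summed over the peak, was 309 (interquartile range 240.5 to 451, highest 4372), against 653 for shared distal peaks and 385 for GFP- only distal peaks. Within the GFP+ list the median GFP+ only distal peak stood at the 17.4th percentile by area. The median length was 336 bp against 414 bp for shared peaks, and the median −log10 p-value at the summit was 4.09 against 5.44. These values come from the contrast by which the peaks were chosen and are given as a description. The nearest GFP- peak lay at a median of 4032 bp, under 500 bp for 11.1% of the peaks and over 50000 bp for 3.44%.

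Just inside the limits, the peak nearest to a start lay 1003 bp from *Ccdc153* (area 259), and just outside one lay 994 bp from *2810004N23Rik* (area 328). At the far limit a peak 99947 bp from *Klf3* (area 1112) was kept and a peak 100019 bp from *Grik3* (area 212) was not. The smallest gap to a GFP- peak was 8 bp, at *Ifnb1* (area 452), and the smallest overlap that made a peak shared was 5 bp, at *Tcf15* (area 221).

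By position the GFP+ only distal peaks were much like other distal peaks. The summit lay in an intron for 65.9% (64.7 to 67.0) and between genes for 34.1%, and the intron share was 1.70 points above that of shared peaks (0.402 to 2.98) and 2.64 points above that of GFP- only peaks (1.25 to 4.03). The median distance to the nearest start was 18554 bp (interquartile range 7497 to 39953), against 17895 bp for shared and 22266 bp for GFP- only peaks. They lay upstream of that start in 42.7% of cases, against 42.9% and 43.0%. The start of a long noncoding RNA was within 1000 bp for 1.60% (1.32 to 1.94), against 2.34% (2.18 to 2.50) of shared peaks. The median GC content of the 200 bp around the summit was 50% against 52% in shared peaks.

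To describe the sequence of these peaks, the 200 bp around each summit were searched for 28 short words, on both strands. Each word stands for a factor family known from the literature, and sequence played no part in choosing the peaks. The paper had already reported motifs in its own peak sets from these nuclei. These were ERG and ETS in peaks unique to GFP+, TCF21 in peaks unique to GFP-, and GATA4 and MEF2 in overlapping peaks. The shares of words for these families are therefore a description and not independent evidence. The ETS and SOX words set the GFP+ only distal peaks apart. The ETS core word AGGAAG was present in 44.0% of GFP+ only distal windows (42.8 to 45.3), in 28.3% of shared windows and in 28.4% of GFP- only windows, and in 30.1% of all distal windows together. The difference from shared peaks was 15.7 points (14.4 to 17.0). In flanks 1000 bp away the word was found in 24.9% of windows for the GFP+ only peaks and 23.9% for the shared ones, so that the classes were close outside the peaks.

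The longer ETS word CAGGAAGT, which contains the core, was in 6.01% of GFP+ only windows against 2.86% of shared windows (difference 3.15 points, 2.55 to 3.79), 3.35% of GFP- only windows and 3.35% of all distal windows. The FOX-ETS word AACAGGAA, which joins the ends of a forkhead and an ETS site and can overlap the core, was in 5.72% against 2.52% of shared and 2.96% of all distal windows. In contrast, the ETS word common in promoters, CCGGAAGT, was in 0.436% of GFP+ only and 0.405% of shared windows (difference 0.0314 points, -0.124 to 0.239) and 0.417% of all distal windows.

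The SOX word CCATTGT was in 6.09% of GFP+ only windows (5.52 to 6.71), against 2.64% of shared, 2.02% of GFP- only and 2.84% of all distal windows. The difference from shared peaks was 3.45 points (2.86 to 4.10). This word behaved differently in the classes when set against their own flanks: it was 1.99 times as frequent as in the flanks for GFP+ only peaks, 0.976 times for shared peaks and 0.764 times for GFP- only peaks. A second SOX word, CTATTGT, gave 3.60% against 1.64% of shared windows and 1.71% of all distal windows.

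Both words were concentrated at the summit. In bins of 50 bp, the ETS core word reached 15.6% and 16.1% of GFP+ only peaks in the bins on either side of the summit and had dropped to 8.08% in the bins centred 175 bp away. In shared peaks the same central bins held 8.27% and 7.98%. The bins centred 75 bp away held 8.73% and 8.75%, and those centred 175 bp away 7.56% and 7.37%. The rise in shared peaks was thus smaller: in the 200 bp windows the word was 1.18 times as frequent as in the flanks, against 1.77 times for GFP+ only peaks. The SOX word reached 1.78% and 1.91% of GFP+ only peaks beside the summit and 0.699% and 0.714% of shared peaks. In GFP- only peaks it dipped there, to 0.463% and 0.451%.

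**Figure D1:**
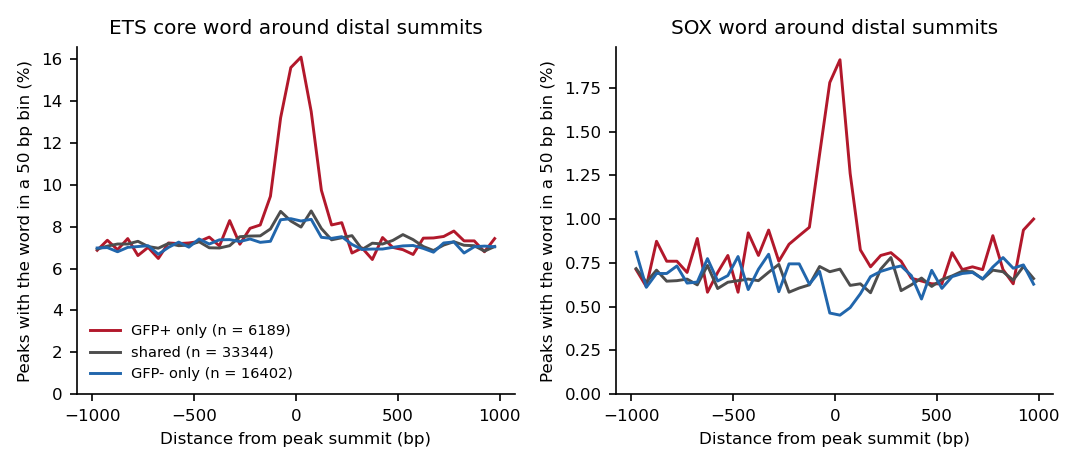
Share of peaks (%) with the ETS core word (left) or the SOX word (right) in each 50 bp bin, by distance from the summit in bp, for distal GFP+ only (red), shared (grey) and GFP- only (blue) peaks. The red line rises to 16.1% for the ETS core word and 1.91% for the SOX word beside the summit, and the other lines stay at or below 8.75% and under 1%.

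Of the 28 words, 13 were more frequent in GFP+ only than in shared windows with an interval above 0, 5 were less frequent with an interval below 0, and for 10 the interval included 0. Among the higher words were the KLF word CCACACCC (3.93% against 2.47% of shared and 2.70% of all distal windows), the forkhead word TGTTTAC (3.86% against 2.82% and 2.97%) and the STAT word TTCCNGGAA (1.73% against 1.06% and 1.13%), which reads the same on both strands. The PU.1 word GAGGAAGTG, which contains the ETS core, was in 1.73% against 0.882% and 1.03%. The IRF word GAAANNGAA was in 7.32% against 5.14% and 5.76%, but at 1.09 times its flanks in GFP+ only peaks. The RBPJ word GTGGGAA, the site of the Notch effector, was in 5.77% against 4.93% and 5.29%. Also higher were the NFAT word TGGAAAA (6.54% against 5.41% and 5.96%) and the homeobox word TAATTA (3.47% against 2.80% and 2.89%), the latter below its flanks in each class. Against GFP- only peaks, which held the RBPJ and NFAT words in 5.84% and 6.87%, the intervals of the differences included 0 (-0.0725 points, -0.738 to 0.629, and -0.327 points, -1.04 to 0.419). The STAT, RBPJ and NFAT words also contain GGAA, the core that ETS factors recognise. Whether their differences are separate from those of the ETS words was not tested.

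The words less frequent in GFP+ only than in shared windows were those of MEF2, the E-box, CTCF, the GC box and NFI. The MEF2 word was in 4.25% of GFP+ only windows against 6.70% of shared and 5.42% of all distal windows. The E-box CAGCTG, which is a palindrome, was in 15.7% against 20.6% and 22.4%. The CTCF word AGGNGGCGC, for the insulator protein, was in 1.71% against 3.20% and 2.39%, the GC box GGGCGGGG in 1.79% against 2.90% and 2.51%, and the NFI word CTTGGCA in 7.79% against 10.2% and 9.49%. Against GFP- only peaks, the largest deficits were those of the E-box (13.0 points lower than their 28.7%), of the AP-1 word TGACTCA (6.35% against 11.8%, and 8.34% of all distal windows) and of the TCF21 word AACAGCTG, which contains the E-box (1.97% against 5.57%, and 3.14% of all distal windows). By contrast, the MEF2 and CTCF words were more frequent than in GFP- only peaks, at 4.25% against 3.26% (0.994 points, 0.441 to 1.59) and 1.71% against 1.01% (0.707 points, 0.369 to 1.09). The AP-1 and TCF21 words were in 7.03% and 2.16% of shared windows. Their differences from shared peaks had intervals that included 0 (-0.680 points, -1.32 to 0.0101, and -0.191 points, -0.548 to 0.215). The GATA word AGATAAG did not separate GFP+ only from shared peaks either, at 4.02% and 3.88% (difference 0.146 points, -0.363 to 0.702) and 3.74% of all distal windows.

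For the remaining words the interval of the difference from shared peaks also included 0. The nuclear receptor word AAGGTCA was in 6.69% of GFP+ only, 6.47% of shared and 6.04% of all distal windows. The EBF word TCCCNNGGG was in 5.07%, 4.56% and 5.58%, the RUNX word TGTGGTT in 4.52%, 4.29% and 4.58%, and the TEAD word GGAATGT in 3.89%, 4.24% and 4.43%. A further GATA word, TGATAAG, was in 2.26%, 2.57% and 2.35%, and the SRF word in 1.07%, 1.27% and 1.20%.

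**Figure D2:**
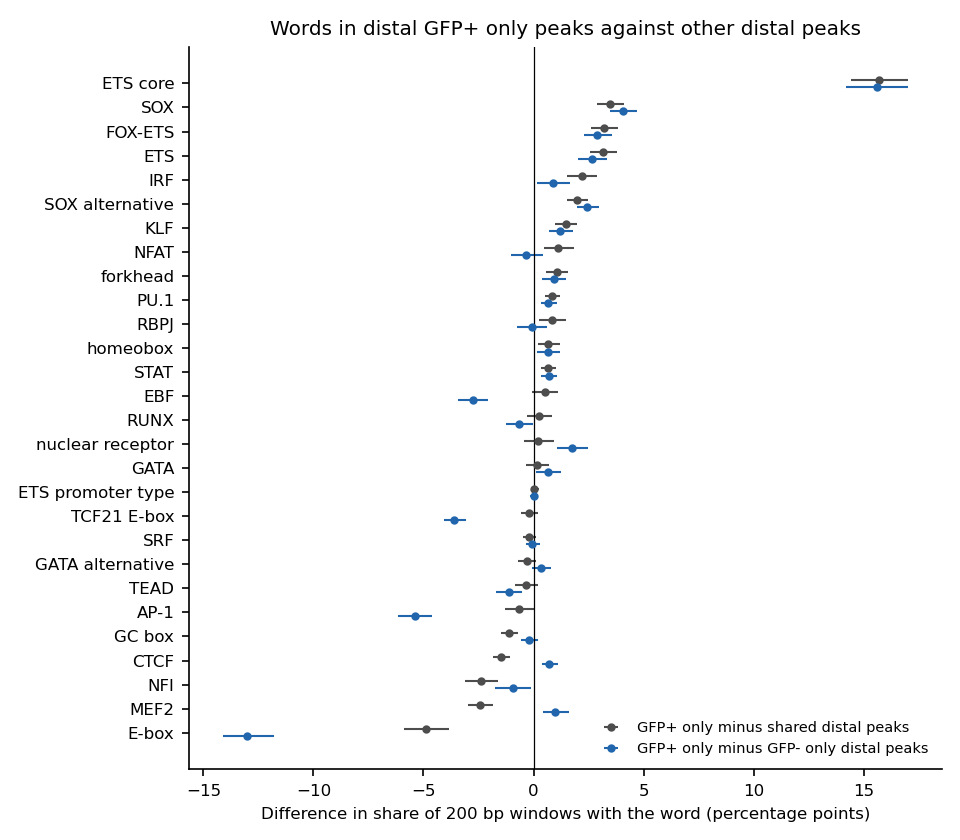
Difference in the share of 200 bp summit windows that hold each of 28 words, in percentage points, between distal GFP+ only peaks and shared (grey) or GFP- only (blue) distal peaks, with Newcombe 95% intervals. The ETS core word stands apart at 15.7 points above shared peaks, followed by SOX at 3.45, and the E-box lies 13.0 points below GFP- only peaks.

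The same families led when no factor was named beforehand. All 8192 words of 7 letters (a word and its reverse complement counted as 1) were ranked by the ratio of their share in GFP+ only windows to that in shared windows, among the 5675 words found in at least 1% of GFP+ only windows. Of the 10 leading words, 6 contain ATTGT or its complement, led by AACAATA (3.86% against 1.62%, ratio 2.39), ATTGTTC (ratio 2.36) and ACAATGG (ratio 2.31). A further 3 contain GGAA or its complement: AGGAAAT (12.2% against 5.53%, ratio 2.20), ACTTCCT (14.2% against 6.96%, ratio 2.04) and ACAGGAA (17.4% against 8.64%, ratio 2.01). The other was ACATCCT (6.48% against 3.20%, ratio 2.02), whose complement holds GGAT. Since these words were chosen by their ratio, the ratios are a description.

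Larger GFP+ only peaks held the ETS core word more often. It was in 33.9% (31.6 to 36.3) of the 1548 peaks with an area up to 240.5, in 39.9% of those up to 309, in 44.1% of those up to 451, and in 58.1% (55.6 to 60.5) of the 1547 above that. The last of these was 24.2 points above the lowest group (20.8 to 27.6). Shared peaks in the lower 3 ranges of area held it in 27.1% each, and those over 451 and up to the largest GFP+ only area in 29.1%, which is 29.1 points below the GFP+ only peaks of that range (26.5 to 31.6). The SOX word followed in part, at 4.97%, 4.46%, 5.75% and 9.18% from the lowest to the highest group, while shared peaks stayed between 2.37% and 2.77%. In the lowest group too, the GFP+ only peaks were above the shared ones, by 6.78 points for the ETS core word (3.67 to 9.89) and 2.20 points for the SOX word (0.904 to 3.57).

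**Figure D3:**
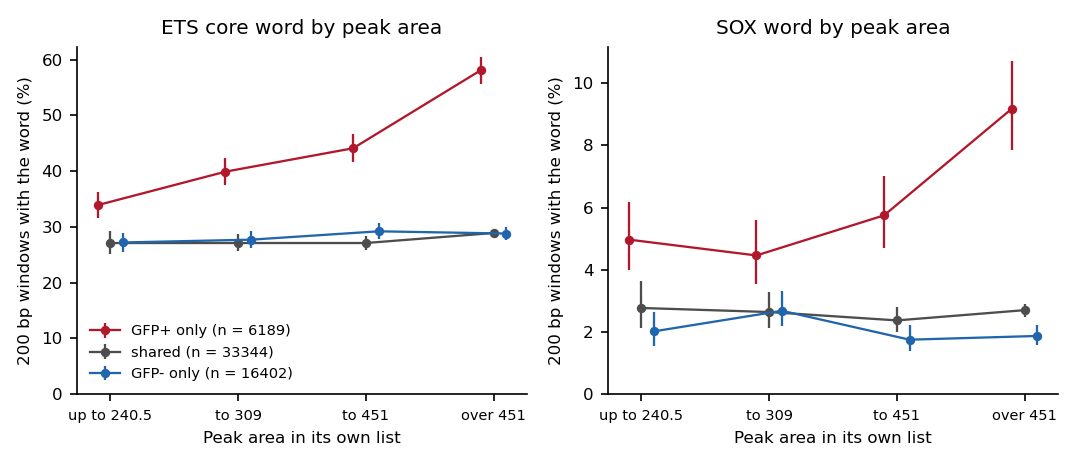
Share of 200 bp summit windows (%) with the ETS core word (left) or the SOX word (right) in 4 ranges of deposited peak area, for distal GFP+ only (red), shared (grey) and GFP- only (blue) peaks; bars are Wilson 95% intervals and the last range has no upper limit. The red points go from 33.9% to 58.1% and from 4.97% to 9.18%, and the others stay between 27.1% and 29.2% and between 1.75% and 2.77%.

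Repeated ETS words were also more frequent. At least 2 ETS core words lay in 15.6% of GFP+ only windows (14.7 to 16.6), against 5.80% of shared and 5.33% of GFP- only windows, and at least 3 lay in 3.76%, 0.963% and 0.701%. An ETS core word and a SOX word occurred together in 3.12% of GFP+ only windows (2.71 to 3.58), where the product of their separate shares is 2.68%, and in 0.834% of shared windows, where the product is 0.748%. Neither word was present in 53.0% of GFP+ only windows.

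The 10 largest GFP+ only distal peaks included some of the best known endothelial loci. *Egfl7* had the largest, with an area of 4372, 3882 bp upstream of the start (chr2:26574407-26577039). The next was at *Cdh5*, with an area of 2925 (chr8:104098769-104100651). *Tek* was also among them, with a peak of area 2041 inside an intron 90676 bp downstream of its start (chr4:94829807-94830453). *Cd200*, a membrane glycoprotein that dampens myeloid cells, had a peak of 2157 with 3 ETS core words (chr16:45349513-45350355).

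Other genes nearest to these 10 peaks are not usual endothelial markers. They were *Selenow*, a selenoprotein (area 2711), *Palm*, which encodes the membrane protein paralemmin (2617), *Csnk2a1*, a casein kinase 2 subunit (2331), *Mrpl15*, a mitochondrial ribosomal protein (2081), *Tbc1d2*, a regulator of Rab GTPases (2072), and *Lnx2*, a ubiquitin ligase (1910.5). The nearest gene was 79278 bp away for the *Mrpl15* peak and 37067 bp away for the *Csnk2a1* peak. The nearest start is a position and does not show which gene a peak acts on.

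In all, 3726 of 21646 protein-coding genes (17.2%) were the nearest gene of at least 1 GFP+ only distal peak, and 562 (2.60%) of at least 3. Of the 3726 genes, 2472 had 1 such peak, 692 had 2, 415 had 3 to 4, 133 had 5 to 9 and 14 had 10 or more. The 562 genes together held 37.7% of the peaks. *Ablim1*, an actin-binding protein gene, had most with 17 of its 54 distal GFP+ peaks. *Kdr*, the main VEGF receptor, had 15 of 19.

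Other genes with many peaks were less exclusive than *Kdr*. *Arhgap26*, which encodes a GTPase-activating protein, had 12 of 53. *Pitpnc1*, a phosphatidylinositol transfer protein, had 12 of 30. *S1pr1*, the main sphingosine 1-phosphate receptor of endothelium, had 11 of 26, and *Plcb4*, a phospholipase C, had 11 of 22. *Podxl*, which encodes the surface sialomucin podocalyxin, had 10 of 18, *Apbb2*, an adaptor protein gene, had 10 of 22 and *Rftn1*, a lipid raft protein gene, had 10 of 29. Distal GFP- only peaks were nearest to most of these genes too. There were 20 at *Arhgap26*, 12 at *Rftn1*, 9 at *Plcb4*, 7 at *Apbb2*, 3 at *Pitpnc1*, 1 at *S1pr1* and 0 at *Podxl*, and *Ablim1* had 11. Over all genes, 33.5% of distal GFP- peaks were GFP- only, and shares at single genes were not computed. Among the 2621 genes with at least 5 distal GFP+ peaks, 92 had GFP+ only peaks as the majority and 914 had none. All distal GFP+ peaks were GFP+ only at 2 of them, *Cd200* (9 of 9) and *Rasgrf2* (5 of 5), which was singled out after its values were seen.

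*Kdr* shows the pattern in most detail. Its 15 GFP+ only distal peaks lay up to 62183 bp before and 99901 bp after the start, with 5 upstream and 6 in introns. Their areas lay between 249.6 and 1482 with a median of 392. The largest lay 35592 bp upstream (chr5:76013809-76014855), followed by peaks 50469 bp upstream (1074), 55595 bp downstream (1029), 62183 bp upstream (764) and 3797 bp downstream in an intron (694). The ETS core word was present in 13 of the 15 windows and the SOX word CCATTGT in 0. No distal GFP- only peak had *Kdr* as its nearest gene, while the peak at its start was shared, with an area of 3888 in the GFP+ list and 1699 in the GFP- list.

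**Figure D4:**
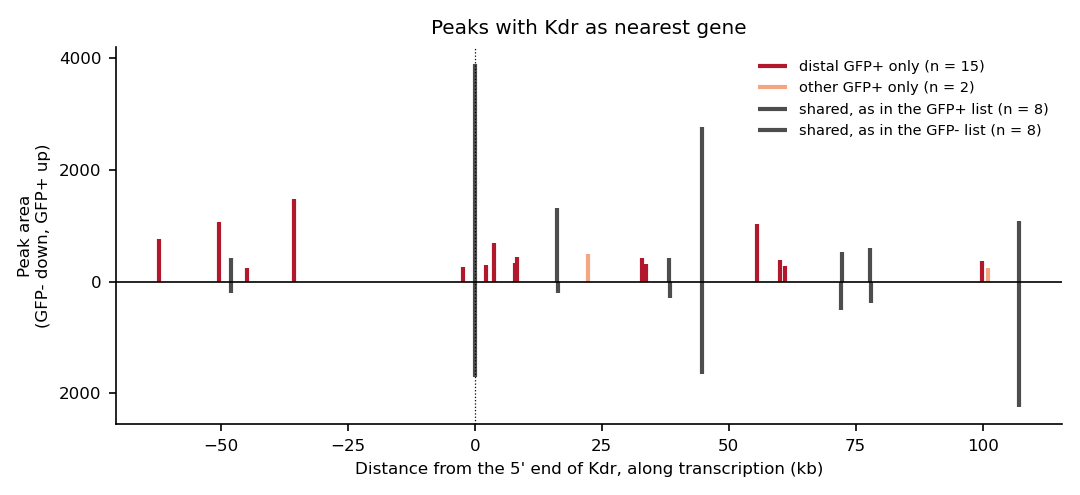
Peaks with Kdr as nearest gene, by distance of the summit from the 5′ end of the gene along transcription (kb) and by deposited area in the GFP+ list (upward) and the GFP- list (downward). The 15 distal GFP+ only peaks (red) lie on both sides of the start with areas of 249.6 to 1482, 2 further GFP+ only peaks (orange) fall outside the distal definition, and 8 peaks (grey) appear in both lists.

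GFP+ only distal peaks tended to lie beside each other. Among the distal GFP+ peaks next to a GFP+ only peak, 24.1% (23.3 to 24.8) were also GFP+ only, against 14.1% (13.8 to 14.4) of those next to a shared peak and 15.7% of all, a difference of 9.96 points between them (9.17 to 10.8). At least 1 neighbour was GFP+ only for 40.6% of the peaks, and both were for 7.50%. When peaks at most 12.5 kb apart were joined, they formed 5005 groups, of which 4168 were single peaks and 837 held 2 or more. The 228 groups of 3 or more held 803 peaks (13.0%), and 26 groups held 5 or more.

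The largest groups held 8 peaks each. At *Adgrf5*, an adhesion G protein-coupled receptor gene, 8 peaks spanned 35.8 kb (chr17:43366469-43402312) with 0 shared distal peaks among them. The other group of 8 lay at *Ak1* and *Eng*, the latter the endothelial co-receptor of BMP9 and TGF-beta (chr2:32636616-32668133), with 3 shared distal peaks inside. Of the 5 groups of 6, the 3 with the largest summed area lay at *Rapgef3* and *Slc48a1* (chr15:97750692-97779080), at *Podxl* (chr6:31584915-31614117, 0 shared peaks inside) and at *Prkch* (chr12:73663323-73683296, 1 shared peak inside). *Rapgef3* encodes the cAMP sensor EPAC1 and *Prkch* a protein kinase C. Of their peaks, 3 of 8 at *Adgrf5*, 4 of 8 at *Ak1* and *Eng*, and 3 of 6 at each of these 3 groups held the ETS core word. The other groups of 6 lay at *Ablim1*, where 4 of 6 held it, and at *Crim1*, where 3 of 6 did. Over all GFP+ only distal peaks the word was in 44.0% of windows.

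To ask how the peaks were placed with respect to endothelial gene families, 12 lists with 153 genes in all were examined. GFP+ only distal peaks were nearest to 107 of these genes, and 48 genes had at least 3. Of the 1019 distal GFP+ peaks at the listed genes, 316 (31.0%) were GFP+ only, against 15.2% at all other genes (difference 15.8 points, 13.0 to 18.7). The ETS core word was in 54.7% of the 316. The lists were chosen with earlier results of these data known, so that these counts describe the lists and are not independent evidence.

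Among ETS factor genes, 9 of 11 had a GFP+ only distal peak, with 34 of 96 distal peaks (35.4%). *Elk3* had 8 peaks, *Fli1* 6, *Erg* 5, *Etv6* 4, *Ets1* 3 and *Elf2* 3, with largest areas of 1494 for *Elk3*, 1301 for *Fli1* and 1102 for *Erg*. *Etv2*, which acts in the embryo, and *Gabpa* had no distal GFP+ peak at all. Distal GFP- only peaks were nearest to ETS factor genes as well, 22 in all, with 8 at *Ets1*. They made up 25% of the distal GFP- peaks at these genes, against 33.5% over all genes. All 3 SoxF genes had a GFP+ only peak, with 4 at *Sox7*, 2 at *Sox17* and 1 at *Sox18* (7 of 15 distal peaks), and no distal GFP- only peak was nearest to any of them. Of 22 other vascular factors, 15 had one, and the share of 21.9% (16.2 to 28.9) was the lowest of the 12 lists. Within it *Epas1*, which encodes HIF-2alpha, had 8 peaks, *Nfatc1*, a factor of the endocardium and valves, had 5, and *Gata2* and *Meox2* had 4 each. The shear-stress factor *Klf2* had 0 among 7 distal GFP+ peaks.

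In the VEGF list, 40 of 89 distal peaks (44.9%, 35.0 to 55.3) were GFP+ only. Besides *Kdr*, *Flt1* had 6 of 10, the lymphatic receptor *Flt4* 4 of 5, the co-receptor *Nrp1* 6 of 13 and the semaphorin receptor *Plxnd1* 6 of 17. The related *Nrp2* had 0 of 7. In the angiopoietin list the share was 44.4% (12 of 27), with 5 peaks at *Ptprb*, the phosphatase VE-PTP, and 3 at *Tek*. *Angpt1*, a ligand made by mural cells, had 0 of 5.

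In the Notch list the share was 22.9% (14.6 to 34.0), an interval that includes the background of 15.7%. *Notch1* had 4 peaks, and the ligand genes *Dll1*, *Dll4* and *Jag2* had 3 each. The receptor genes *Notch2* and *Notch3* had 0 of 7 and 0 of 6, and *Rbpj*, the common effector, had 0 of 6. In the BMP and TGF-beta list the share was 25.4% (32 of 126). *Eng* led with 7 of 11, followed by the inhibitor *Smad7* with 5 and by *Smad1*, the BMP effector, and the inhibitor *Smad6* with 4 each. *Tgfbr3*, a co-receptor, had 3 of 22. *Acvrl1*, the BMP9 receptor of endothelium, had 0 of 6.

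Junction and adhesion genes had 47 of 113 (41.6%, 32.9 to 50.8). *Tjp1*, which encodes the tight junction protein ZO-1, had 6, *Cdh5* and *F11r*, the gene of JAM-A, had 5 each, and *Pecam1*, *Cldn5*, *Jam3* and *Emcn* had 4 each. *Cd34* and *Ctnnb1*, the gene of beta-catenin, had 3 each. *Emcn*, which encodes endomucin, had 4 of 5 distal peaks GFP+ only, and *F11r* 5 of 6.

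Genes of endothelial transport and signalling lay between. In the fatty acid and lipid list, 25 of 88 (28.4%) were GFP+ only, with 7 at the fatty acid translocase gene *Cd36* and 5 at *Cav1*, the gene of caveolin-1. *Gpihbp1*, the capillary anchor of lipoprotein lipase, had 2 of 3, and *Lpl* itself, made mainly by parenchymal cells, had 1 of 12. In the list of apelin, S1P and adrenomedullin receptors 26 of 82 (31.7%) were GFP+ only, with *S1pr1* at 11 and the chemokine scavenger *Ackr3* and the lysophospholipid receptor *Lpar6* at 3 each. For haemostasis and vascular tone the count was 16 of 62 (25.8%), with 4 each at *Vwf*, the gene of von Willebrand factor, and the adenosine receptor *Adora2a* and 3 at *Ednrb*. For vessel guidance it was 26 of 91 (28.6%), with 8 at *Sema6a* and 3 each at *Efnb2*, the arterial ephrin, *Plxna2* and *Egfl7*.

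Marker genes of cell types gave the widest contrast. At 14 endothelial markers 60 of 111 distal GFP+ peaks were GFP+ only (54.1%, 44.8 to 63.0), with a peak at 12 of 14 genes and at least 3 at 10 of them. All 14 are also in the family lists, so these 60 peaks are among the 316 counted there. *Kdr* alone gave 15 of 19. *Esam* had no distal GFP+ peak and *Robo4* had 0 of 3. At 12 pericyte and smooth muscle markers the count was 0 of 49 (0 to 7.27%). At fibroblast markers it was 2 of 31 (6.45%, 1.79 to 20.7) and at Schwann and glial markers 2 of 24 (8.33%, 2.32 to 25.8). At adipocyte markers it was 1 of 16 (6.25%, 1.11 to 28.3) and at epicardial and mesothelial markers 4 of 13 (30.8%, 12.7 to 57.6). The intervals of the fibroblast, glial, adipocyte and epicardial lists all include the background of 15.7%. The count was 0 of 9 at macrophage and 0 of 6 at lymphocyte markers, also too few to place them.

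Cardiomyocyte markers had 9 of 109 (8.26%, with an interval from 4.40% to a bound below the background of 15.7%), with *Ryr2*, the calcium release channel of muscle, at 3 of 20 and *Actn2*, which encodes a Z-disc protein, at 2 of 15. Their largest areas were 269.8 and 234. Peaks at the starts of the marker genes were examined as a check of the sorted populations. All 14 endothelial markers had a GFP+ peak at the start and 9 had a GFP- one. Median ranks by area over the 14 genes were at the 86.6th and 33.1st percentiles, with a gene lacking a start peak entered as rank 0. The 9 GFP- start peaks themselves ranked from 14.3 (*Robo4*) to 87.2 (*Esam*). GFP+ had the higher rank for 13 genes and the lower for *Tek*. Of the 14 cardiomyocyte markers, 13 had a start peak in GFP+ and 13 in GFP-, at median ranks of 92.5 and 96.1. The rank was higher in GFP+ for 3 cardiomyocyte markers and lower for 10. Fibroblast markers had 4 of 12 and 10 of 12, pericyte and smooth muscle markers 6 and 11 of 12, and macrophage markers 1 and 2 of 12. The rank in GFP+ was higher for 0 and lower for 10 fibroblast markers, and higher for 1 and lower for 10 pericyte and smooth muscle markers. The Schwann and glial, epicardial and adipocyte lists had 3 of 10 in each population and lymphocyte markers 0 in both. Whether peaks from cardiomyocyte nuclei are among the GFP+ only distal peaks was not tested.

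Gene lists of single cell types from the study's table of spliced transcripts, which are shorter than the marker lists its methods describe, were examined as well. Of 176 endothelial genes matched, 128 (72.7%) had a GFP+ only distal peak and 56 had at least 3, and 407 of 1176 distal GFP+ peaks were GFP+ only (34.6%, 31.9 to 37.4). The fibroblast list gave 102 of 713 (14.3%, 11.9 to 17.1), close to the background, and the cardiomyocyte list 57 of 632 (9.02%, 7.03 to 11.5). GFP+ only peaks at the endothelial list held the ETS core word in 56.8% of cases, 13.6 points more than the others (8.60 to 18.5) and 23.7 points more than shared peaks at the same genes (17.8 to 29.5). For the 102 at the fibroblast list it was 49.0%, which was 18.6 points above the 30.4% of shared peaks at those genes (8.37 to 28.8) and 5.07 points from the other GFP+ only peaks (-4.50 to 14.7). For the 57 at the cardiomyocyte list it was 31.6% (21.0 to 44.5), which differed from the 22.6% of shared peaks at those genes by 8.97 points with an interval that includes 0 (-2.20 to 22.3). For the SOX word, the difference between peaks at endothelial list genes and the others was 1.37 points (-0.883 to 4.38), and against the 5.33% of shared peaks at the same genes the 7.37% was 2.04 points higher with an interval that includes 0 (-0.786 to 5.30).

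**Figure D5:**
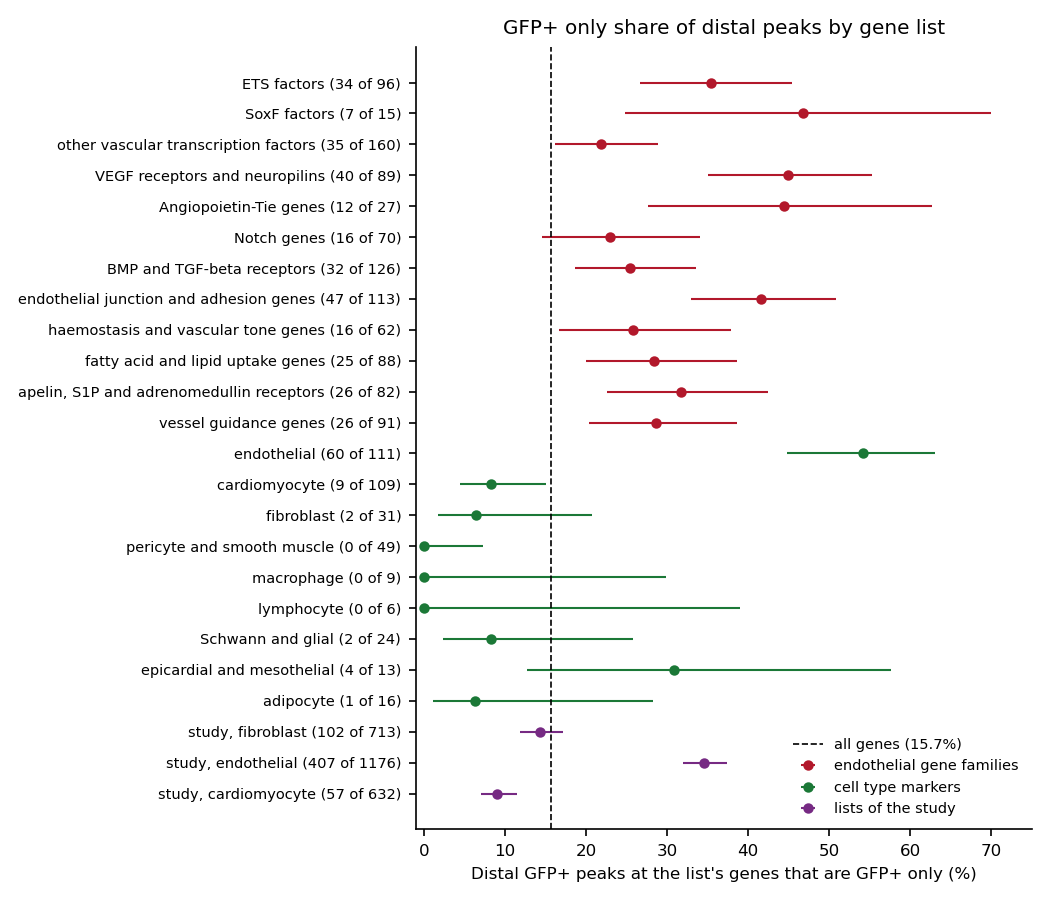
Share of the distal GFP+ peaks at each list's genes that are GFP+ only (%), with Wilson 95% intervals and, in brackets, the count of GFP+ only peaks of all distal GFP+ peaks; red, endothelial families; green, cell type markers; purple, lists of the study; dashed line, all genes at 15.7%. Endothelial markers lie highest at 54.1% and the pericyte and smooth muscle markers lie at 0 of 49.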

How the data were processed

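ATAC-Seq was performed on GFP+ and GFP- nuclei sorted from whole hearts of NuTRAP/Cdh5-Cre mice, with 2 libraries per population. The authors aligned fastp-trimmed reads to mm10 (bowtie2), removed poor alignments (samtools) and duplicates (Picard), reduced the libraries to equal depth and ran Genrich for ATAC-Seq on both replicates at once, without chromosomes M and Y or blacklisted regions. Per the labels each reaction used 2.5 µL of Tn5, which the paper gives differently. In the deposited lists the area is a signal that the authors' caller sums along a peak, the score column, as deposited, is a scaled mean signal with a limit of 1000 (reached by 55.2% of the GFP+ only distal peaks), and the −log10 p-value column, as deposited, refers to the summit. No peak had an area under 200. The lists hold no read counts, so the depth behind each peak is unknown, and because each pools both replicates no replicate test or p-value was possible.

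Peaks were compared at an overlap of 1 bp. Transcript starts, exons and introns came from GENCODE M21, and sequence from GRCm38.p6, whose chromosome lengths hold every peak on the assembled chromosomes. An intron is any position within a transcript and outside all exons. Words were searched in 200 bp around each summit, on both strands, and flank windows lay 1000 bp to either side. Start peaks of marker genes lie within 250 bp of the start, and a gene without one was given rank 0. Distal peaks were joined into groups at 12.5 kb. The lists of the study were the symbols on 3 complete sheets of its table of spliced transcripts, each for genes of 1 cell type only, and not the longer marker lists of its methods, and of these 176 of 179 endothelial, 110 of 111 cardiomyocyte and all 242 fibroblast symbols matched. The regions, the words and the gene lists were chosen with earlier results of these data known. Genes named are the nearest genes of the 10 peaks of largest area, the 10 genes with most peaks, the genes of the 5 largest groups, the family genes with at least 3 peaks and the marker genes of other cell types with at least 2, beside list members named for contrast after their values were seen. A gene that this rule names is not reported here. Calculations used Python 3.11.15, scipy 1.17.1, numpy 2.4.6, pysam 0.24.0 and pandas 2.3.3. The scripts were tested on simulated data. Alternatives changed the overlap, the gap, the area, the set of starts, the distance limits, the exon filter and the word window.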

Additional observations from a re-analysis of the deposited data

How the results depend on the processing

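No paired analysis was possible because each deposited list pools both replicates, and for the same reason no replicate could be left out. The 11 alternatives left the ETS core, ETS and SOX words more frequent in GFP+ only than in shared distal peaks in 11 of 11 cases each, at 1.29 to 2.07, 1.77 to 2.40 and 1.68 to 4.09 times the shared share. A reciprocal overlap of 50% enlarged the set to 11791 peaks at 5668 genes, with 4.83% holding the ETS word, 4.44% the SOX word, 35.5% of next peaks within the set (29.8% of all distal peaks) and a median distance of 16946 bp. Taking only the upper 50% of the GFP+ list by area left 673 peaks at 565 genes, with 6.98%, 11.3%, 12.5% of next peaks (4.11% of all distal peaks), 61.7% in introns and 21617 bp. An area of at least 400 in both lists, under which smaller GFP- peaks no longer count as overlaps, gave 3945 peaks, 1944 of them in the original set, 64.4% in introns and 19773 bp. Windows of 100 and 400 bp gave 3.09% and 8.53% for the ETS word, against 1.42% and 4.78% of shared windows. For SOX they gave 3.49% and 9.29%, against 1.33% and 4.99%. Starts of all gene types gave 24.9% of next peaks (16.3% of all distal peaks), 61.3% in introns and 11083 bp. The intron share and median distance were 64.6% and 23882 bp with starts of gene records, 64.0% and 24252 bp beyond 5000 bp from a start, 61.7% and 25859 bp without an upper limit, and 59.8% and 17494 bp with exon summits kept, and a gap of at least 500 bp gave 19469.5 bp. The size of the set rests on the overlap and the area required. For the other values that moved the cause was not tested. The depth behind a peak is unknown, so absence from the GFP- list is absence of a call and not of accessibility.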

Other observations

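The GFP+ only share of distal GFP+ peaks went from 13.7% on chromosomes 4 and 17 to 18.1% on chromosome X (14.9 to 21.8). The intervals of chromosomes 4, 11 and 17 lay below the overall 15.7% and those of chromosomes 6 and 18 above it.

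The ETS core word was more frequent in GFP+ only than in shared windows at each GC content: 35.3% against 21.3% up to 45% GC, 45.4% against 28.6% from 45 to 55%, and 48.7% against 30.5% above. Within GFP+ only peaks it was 41.6% up to 10000 bp from a start, 44.4% up to 50000 bp and 47.2% beyond, whereas shared peaks went from 29.4% to 28.0% and 27.4%. It was 44.0% in introns and 44.1% between genes. By distance to the nearest GFP- peak it was 38.5% under 500 bp, 46.8% up to 5000 bp and 42.6% farther away.

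Repeat-masked sequence covered at least 50% of the window in 3.44% (3.02 to 3.93) of GFP+ only peaks, against a range of 1.86 to 2.16% for shared and 2.52 to 3.02% for GFP- only peaks (intervals). The start of a miRNA gene was within 1000 bp for 15 of the GFP+ only peaks (0.242%), against 0.264% of shared and 0.232% of GFP- only peaks, the largest of them at *Mir6989* (area 639).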
